A study of Danio rerio with 32 samples.

Results

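The 8 genes described here, tm9sf4, rmdn1, si:ch1073-416d2.3, cldn2, rgrb, MYG1, galnt13 and CU657925.1, stood at or near the top of a ranking of liver transcripts by their difference between gys2 knockout and wild-type zebrafish. They were taken by their symbols from a deposited table of 31658 rows, and each symbol matched 1 row. The liver values of the same 16 libraries chose them, so their liver differences are given as a description, without a test. Liver and muscle of adult female AB-strain fish were sequenced in 4 groups of 8 libraries: wild-type liver, gys2 knockout liver, wild-type muscle and gys2 knockout muscle. The series' design names 8 fish of each genotype, both tissues having been taken. The sources used here give neither the allele and lesion in gys2 nor the matching of livers to muscles by fish, and they name no further allele or agent for any group.

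The gene gys2 encodes the glycogen synthase of liver, the enzyme that lengthens glycogen chains in hepatocytes, while muscle relies on the product of gys1. None of the 8 genes encodes an enzyme of glycogen or glucose metabolism by its name. tm9sf4 encodes a nonaspanin, a protein with many membrane spans found in Golgi and endosomes. rmdn1 belongs to a family named as regulators of microtubule dynamics. cldn2 encodes claudin-2, which in mammals forms pores for cations and water in the tight junctions of leaky epithelia. rgrb encodes a relative of the mammalian retinal G protein-coupled receptor, an opsin-like protein that binds retinal. MYG1 is named for an exonuclease that in human cells acts on RNA in the nucleus and mitochondria. galnt13 encodes a transferase of the family that starts mucin-type O-glycans by adding N-acetylgalactosamine to proteins. si:ch1073-416d2.3 and CU657925.1 carry clone names only, and no role is given to them.

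Libraries were 3′-end counts of polyadenylated RNA. Their totals ran from 1514099 to 2366219 counts in wild-type liver and from 2562717 to 15351773 in knockout liver, so that every knockout liver was deeper than every wild-type liver. Muscle totals ran from 1664493 to 7264469 in wild type and from 2373329 to 3620243 in knockout. The tissue labels were checked against 10 hepatocyte markers, whose summed level was at least 26050 counts scaled to the library total (CPM) in every liver and at most 7092 CPM in any muscle library. The 2 muscle libraries numbered 6, 1 of each genotype, were the highest muscle libraries for these liver transcripts, at 7092 and 3542 CPM, and results that touch them are given with and without them. The targeted gene gys2 had a mean of 11.8 ± 6.60 CPM in livers of wild-type fish against 0.907 ± 0.721 in those of knockouts (SD, n = 8 each). The difference of mean log2(CPM + 0.5) was -3.03 (two-sided exact permutation p = 0.0001554, the smallest that 8 against 8 libraries can give).

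In the fit across all liver genes, made with edgeR's quasi-likelihood test and TMM scaling, 9438 genes passed the filter on low counts and 7 were called (Benjamini-Hochberg adjusted p below 0.05), which is 0.0742% of the genes tested. Of these, 6 were higher in knockout (0.0636%) and 1 was lower (0.0106%). That split depended on tool and scaling: it was 177 higher and 155 lower with DESeq2, 110 and 114 with limma-voom, 5 and 0 with DESeq2 size factors, and 16 and 3233 with library totals. The 8 genes held ranks 1 to 4, 6 to 8 and 12 by p, and all 8 passed the filter. The targeted gene gys2 was too low to pass it, so gys2 has no rank in this fit. By construction of the choice, 6 of the 7 called genes are among them; the seventh was ppdpfb, at rank 5. The adjusted p around the threshold, which belong to the choice of the genes and are no test of them, were 0.0461 for rgrb, just inside, and 0.0588 for galnt13 and 0.0600 for MYG1, just outside. Among the genes ranked between them and not described here were CU655961.2 and sumo2b, and fads2 followed MYG1 at rank 13.

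Levels below are CPM of the library total unless TMM-scaled CPM is named. The 2 scales matter in liver: scaling by library totals in place of TMM moved the median log2 change of all liver genes from -0.02 to -0.54. Relative to that median, the log2 changes of the 8 genes were nearly the same on either scale, for example 2.21 on both for tm9sf4. A lower level in a piece of tissue can come from fewer cells of a type or from less RNA per cell, and these cannot be told apart in such samples.

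**Figure D1:**
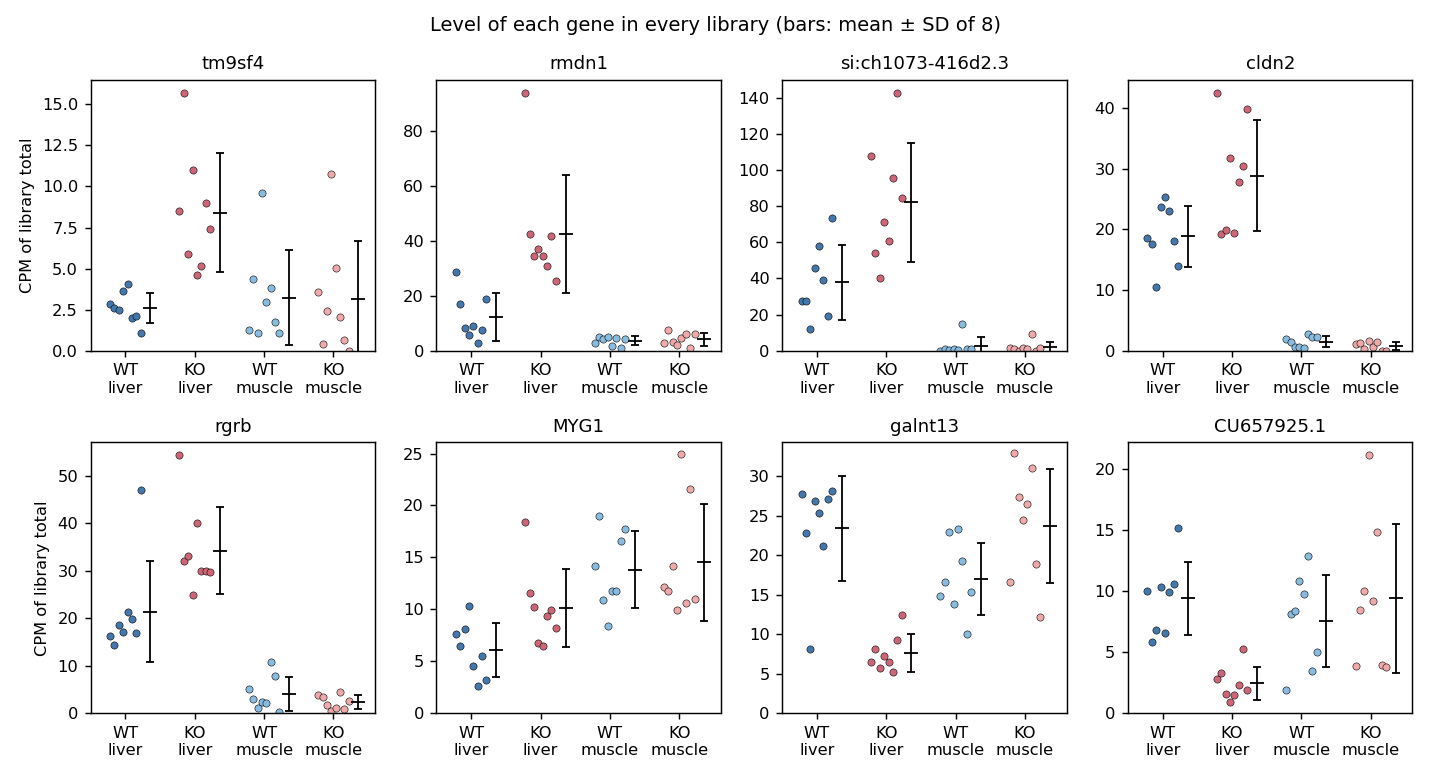
Level of each of the 8 genes in every library, in CPM of the library total on an axis that starts at 0, for wild-type (WT) and gys2 knockout (KO) liver and muscle; dots are libraries in order of replicate number, and the bar beside each group is the mean ± SD of 8. For tm9sf4 the knockout livers begin at 4.597 CPM, above the highest wild-type liver at 4.05 CPM, and for CU657925.1 they end at 5.29 CPM, below the lowest wild-type liver at 5.86 CPM.

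Transcripts of tm9sf4, the nonaspanin, ranged from 1.08 through a median of 2.55 to 4.05 CPM in wild-type liver. In knockout liver they ranged from 4.597 through 7.96 to 15.7 CPM, and every knockout liver lay above every wild-type liver. These wild-type values rest on 2 to 8 counts per library, against 19 to 91 counts in knockout liver. The fitted log2 change was 2.19 ± 0.32 (SE). Of all 9438 tested genes, tm9sf4 was the only one whose knockout livers all lay above all wild-type livers on library-total CPM (0.0106%). That is no support for the difference. The same livers chose tm9sf4, and it passed the filter on low counts only through its knockout livers. On TMM-scaled CPM 13 tested genes lay so (0.138%). In muscle the lowest, median and highest libraries of wild-type fish were at 1.10, 2.34 and 9.61 CPM, and those of knockouts at 0, 2.24 and 10.8 CPM. Wild-type liver thus had a mean of 2.60 CPM against 3.24 in wild-type muscle and 3.12 in knockout muscle, and knockout liver stood above them at 8.41 CPM. Neighbouring groups in that order overlapped in their ranges. Muscle was at 125% of the liver mean for wild type and at 37.2% for knockout, and at 121% and 38.96% without the libraries numbered 6.

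For rmdn1, of the microtubule-dynamics family, wild-type livers ranged from 2.64 through 8.60 to 28.7 CPM. Knockout livers ranged from 25.4 through 35.8 to 93.9 CPM, and 7 of the 8 lay above the highest wild-type liver. On TMM-scaled CPM all 8 did so. The log2 change was 2.25 ± 0.34, the largest of the 8 genes. Knockout liver replicate 1 was far above the rest at 93.9 CPM, the next being 42.4 CPM; without that library the log2 change was 2.13. Wild-type liver replicate 1, at 28.7 CPM, was the only wild type that reached the range of the knockouts. Muscle held rmdn1 at 0.873 to 5.16 CPM (median 4.39) in wild-type fish and at 0.995 to 7.58 CPM (median 3.93) in knockouts, so mean muscle levels were 29.5% of those of liver for wild type and 9.87% for knockout, and 28.3% and 9.20% without the muscle libraries numbered 6.

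si:ch1073-416d2.3, known by a clone name only, was found almost wholly in liver. Wild-type livers ranged from 11.8 through 33.4 to 73.5 CPM, and knockout livers from 40.2 through 77.97 to 143 CPM. The ranges overlapped, with 4 knockout livers above the highest wild type and 3 wild types at or above the lowest knockout. Its log2 change was 1.60 ± 0.29. Muscle medians were 0.875 CPM for wild type and 1.14 CPM for knockout, and 1 wild-type and 2 knockout libraries had no count. The 2 muscle libraries numbered 6 held 14.6 CPM (wild type) and 9.29 CPM (knockout), while no other muscle library exceeded 1.66 CPM. With those 2 libraries left out, muscle held 1.67% of the wild-type and 1.10% of the knockout liver level. The hepatocyte marker sum in the same muscle libraries averaged 1.53% and 1.497% of its liver level.

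Claudin-2 transcripts (cldn2) ranged from 10.6 through 18.4 to 25.3 CPM in wild-type liver. In knockout liver they ranged from 19.3 through 29.1 to 42.6 CPM. Of the knockouts, 5 lay above the highest wild type, and all 8 lay above the wild-type median. The log2 change was 1.11 ± 0.21, and 0.59 when scaled by library totals. Muscle levels were far lower, at 0.490 to 2.75 CPM (wild type, median 1.63) and 0 to 1.66 CPM (knockout, median 0.850), and no muscle library reached any liver of either genotype. How many of all genes differ so between the tissues was not counted. The mean muscle level was 7.94% of that of liver for wild type and 2.75% for knockout.

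The opsin-family gene rgrb also lay higher in every liver than in any muscle library of its genotype, again without a count of all genes that do so. Wild-type livers ranged from 14.3 through 17.9 to 47.0 CPM and knockout livers from 24.9 through 30.98 to 54.3 CPM. A single wild-type liver, replicate 8 at 47.0 CPM, stood within the knockout range, and the next wild type was at 21.3 CPM. The log2 change was 1.17 ± 0.23, and 1.43 without that library. Wild-type muscle held 0.219 to 10.8 CPM of rgrb (median 2.70) and knockout muscle 0.415 to 4.47 CPM (median 2.20). Markers of retina and pigment epithelium, where the mammalian relative is known to act, summed to 10.52 to 26.7 CPM in livers of wild-type fish, and to 6.82 to 32.7 CPM in those of knockouts. The gene lrata made up most of these sums. Its mean was 11.86 CPM among livers of wild-type fish, where the summed mean was 16.28. Among those of knockouts lrata was at 13.02 CPM, against 15.63 for the sum. In muscle lrata averaged 0.690 CPM for wild type and 0.618 CPM for knockout. Which cells of the liver samples held lrata was not tested, so these sums are not read as RNA of retina or pigment epithelium. The rod opsin gene rho was at 0 in all wild-type livers and averaged 0.0339 CPM in knockout livers.

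For MYG1, named for the RNA exonuclease, wild-type livers ranged from 2.64 through 6.00 to 10.3 CPM and knockout livers from 6.51 through 9.68 to 18.4 CPM. Only 2 knockout livers lay above the highest wild type on this scale, whereas on TMM-scaled CPM all 8 did. The log2 change was 1.24 ± 0.26 with TMM and 0.73 with library totals. MYG1 was the only 1 of the 6 higher genes whose mean was greater in muscle than in knockout liver: it ranged from 8.41 through 13.02 to 19 CPM in wild-type muscle and from 9.95 through 11.98 to 24.95 CPM in knockout muscle. Mean muscle levels were 228% of those of liver for wild type and 144% for knockout, and 232% and 149% without the libraries numbered 6.

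Of the 2 genes that stood lower, galnt13, the O-glycan-starting transferase, ranged from 8.09 through 26.1 to 28.1 CPM in wild-type liver. Knockout livers ranged from 5.18 through 6.92 to 12.5 CPM. All 8 knockouts lay below the wild-type median, and replicate 3 was the only wild type within the knockout range, the next lowest being 21.1 CPM. The log2 change was -1.11 ± 0.23 with TMM and -1.65 with library totals. Wild-type muscle ranged from 10.03 through 15.95 to 23.3 CPM of galnt13, and knockout muscle from 12.2 through 25.5 to 32.9 CPM. Muscle was thus at 72.8% of the liver mean for wild type and at 310.3% for knockout, and at 71.4% and 297% without the libraries numbered 6.

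CU657925.1 likewise had its lowest mean in knockout liver. Wild-type livers ranged from 5.86 through 9.97 to 15.1 CPM and knockout livers from 0.949 through 2.15 to 5.29 CPM, with no overlap. Libraries without such overlap and lower in knockout were found for 1.91% of tested genes on this scale. The gap is no support for the difference. The same livers chose CU657925.1, and it passed the filter on low counts through its wild-type livers. Wild-type muscle ranged from 1.90 through 8.27 to 12.9 CPM, and knockout muscle from 3.81 through 8.82 to 21.1 CPM. Muscle was at 80.4% of the liver mean for wild type and at 381% for knockout, and at 72.3% and 349.8% without the libraries numbered 6. The log2 change in liver was -1.49 ± 0.29.

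In raw counts the lower genes did not differ in the way the CPM did. The livers of wild-type fish had 13 to 64 counts of galnt13 and those of knockouts 22 to 88; CU657925.1 had 9 to 28 and 5 to 25, while the knockout libraries were deeper throughout. Summed markers of skeletal muscle, intestine and oocytes also had lower means in knockout livers on the scale of library totals. Those of retina and pigment epithelium differed little (15.63 against 16.28 CPM), and their main member lrata was higher in knockout livers (13.02 against 11.86 CPM). On that scale the median of all liver genes lies at -0.54. Mean sums were higher in knockout than in wild-type livers for pancreatic (1178 against 833.3 CPM), erythrocyte (669.2 against 548.5) and cholangiocyte markers (523.4 against 474.2). Macrophage sums were nearly equal (151.9 against 150.6). Medians were also higher in knockout for pancreatic, erythrocyte and macrophage markers, but lower for cholangiocyte markers (371.6 against 384.5 CPM). The summed level of 8 skeletal muscle markers was 1291 to 1734 CPM among wild-type livers and 883 to 1177 CPM among knockout livers, 2.47% and 1.73% of the muscle mean. No marker of that list was at 0 in either group. The 6 intestinal markers summed to 34.5 to 71.8 CPM in wild-type livers, with 1 marker at 0, and 19.9 to 35.2 CPM in knockout livers, and the 8 oocyte markers to 67.2 to 165 and 50.5 to 70.0 CPM. With TMM, 2 of 6 tested skeletal muscle markers, 2 of 5 oocyte markers and 0 of 2 intestinal markers had positive log2 changes, and 0 were called. The 1 tested gene listed for retina and pigment epithelium, lrata, was positive at 0.59 ± 0.32 and was not called. It is not read as RNA of those tissues. Of all tested liver genes 48.2% were positive. The part of depth and of RNA from other tissues in the lower levels of galnt13 and CU657925.1 was not tested. Among the higher genes, knockout liver replicate 1 was the highest knockout for rmdn1, cldn2, rgrb and MYG1 on library-total CPM. On TMM-scaled CPM cldn2 was highest in knockout replicate 8 (48.8, against 40.8 in replicate 1). Replicate 1 was also the highest knockout for the sums of hepatocyte markers (104500 CPM), 16 pancreatic markers (3574 CPM) and 7 cholangiocyte markers (1290 CPM). The same held for erythrocyte (1278 CPM), macrophage (214.2 CPM) and retina and pigment epithelium markers (32.69 CPM). For intestinal markers the highest knockout was replicate 5, and for oocyte and skeletal muscle markers replicate 2. With TMM, log2 changes were positive for all 10 hepatocyte, all 14 tested pancreatic, all 5 tested macrophage, all 5 tested erythrocyte and 4 of 5 tested cholangiocyte markers, against 48.2% of all tested liver genes. Of these markers 0 were called. Their part in the higher levels was not tested.

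4 of the genes had no overlap between the genotypes in liver on TMM-scaled CPM. These were tm9sf4, rmdn1 and MYG1, higher in knockout as were 0.138% of tested genes, and CU657925.1, lower as were 0.117%. Of these, tm9sf4 passed the filter on low counts only through its knockout livers, and CU657925.1 passed it through its wild-type livers. In the order of the 4 group means on library-total CPM, the only neighbours with ranges apart were wild-type liver over wild-type muscle for cldn2 and rgrb. The share of all genes whose livers and muscles lie apart so was not counted. All 8 genes had every knockout liver on the same side of the wild-type median, on either CPM scale. The same livers chose the genes, so this only describes the choice, and the share of all tested genes that do so was not counted. Within the genotypes the 28 pairwise correlations of the 8 genes were of mixed sign, with 12 positive. Taken on log2 deviations from the genotype mean over the 16 livers, they ran from -0.58 (si:ch1073-416d2.3 with MYG1) to 0.46 (si:ch1073-416d2.3 with cldn2), with a median of -0.025. They carry no test and were not set beside those of other gene pairs, and low counts limit them.

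Depth was then made equal by drawing counts at random from each library down to the total of the shallowest, 1514099. In the first of 10 draws wild-type livers had 2 to 6 counts of tm9sf4 (median 4) and knockout livers 5 to 22 (median 13), and 3 wild types were at or above the lowest knockout. For rmdn1 the counts were 4 to 42 (median 12) and 40 to 147 (median 60), with 1 wild type at or above the lowest knockout. The gene with the clearest gap among the lower ones, CU657925.1, had 8 to 26 counts (median 13.5) and 2 to 9 (median 3.5), and 7 of 8 knockouts lay below every wild type. Of the 9438 genes, none stood higher in knockout without overlap in that draw (0.0%), whereas 1.19% stood lower without overlap. Over the 10 draws the ranges were apart in 4 for tm9sf4 and in 7 for CU657925.1, and in none for the other 6 genes. At this depth the wild-type median of cldn2 and of MYG1 was exceeded by 7 of 8 knockouts, and all 8 lay beyond it for each of the other 6. The share of all tested genes was not counted for this measure either.

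**Figure D2:**
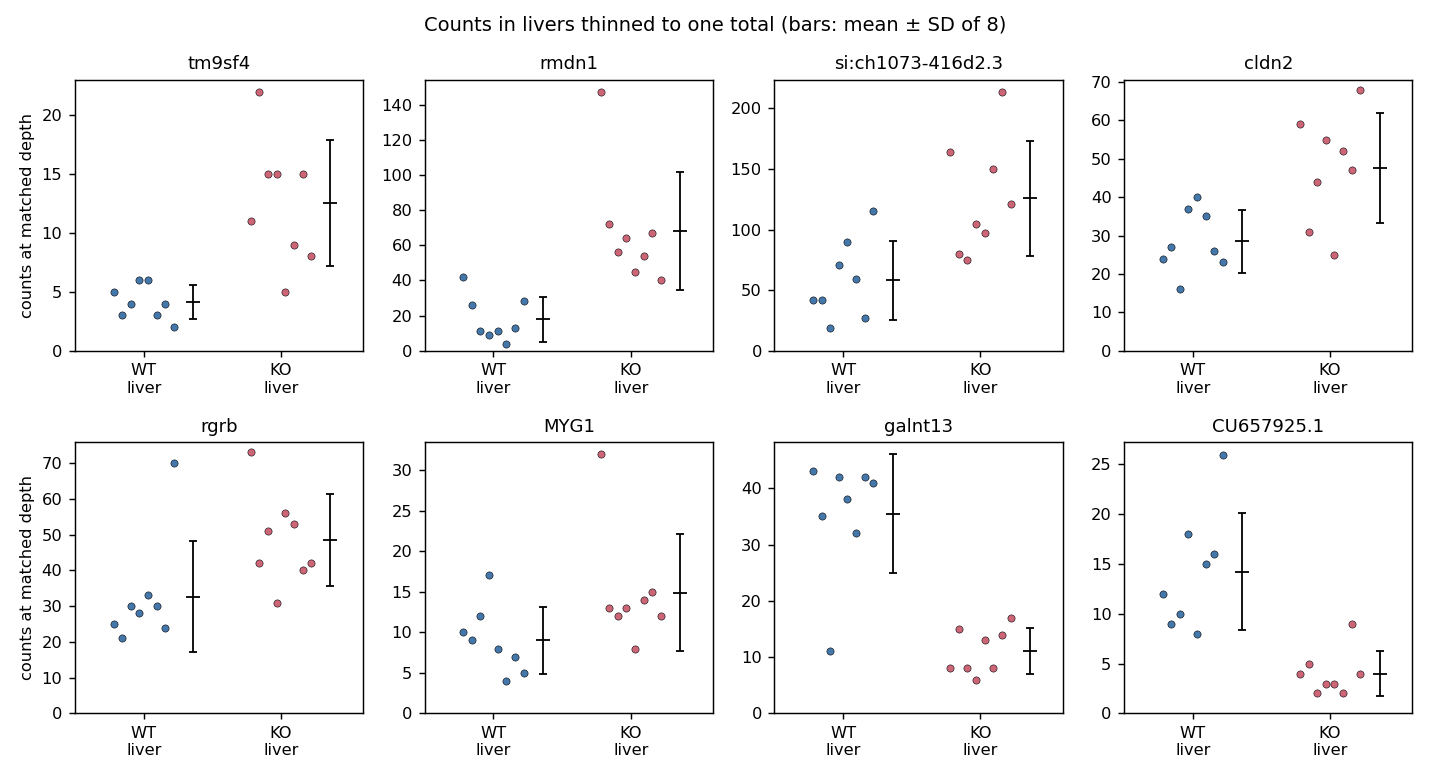
Counts of the 8 genes in the 16 livers after each library was thinned to 1514099 counts (first of 10 draws), on axes that start at 0; dots are libraries in order of replicate number and bars are the mean ± SD of 8. The 2 groups of tm9sf4 overlap at 5 and 6 counts, and galnt13 has a median of 39.5 counts among wild types and 10.5 among knockouts.

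When the fit was run on thinned counts, tm9sf4 and CU657925.1 no longer passed the filter in any draw and have no value there. The other genes kept their direction in every draw in which they were tested, with log2 changes of 2.13 to 2.37 for rmdn1, 1.53 to 1.69 for si:ch1073-416d2.3, 0.99 to 1.25 for cldn2, 1.05 to 1.27 for rgrb, 1.08 to 1.49 for MYG1 (9 draws) and -1.31 to -0.99 for galnt13. With a library left out in turn, tm9sf4 ran from 2.07 to 2.39 and CU657925.1 from -1.66 to -1.36.

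**Figure D3:**
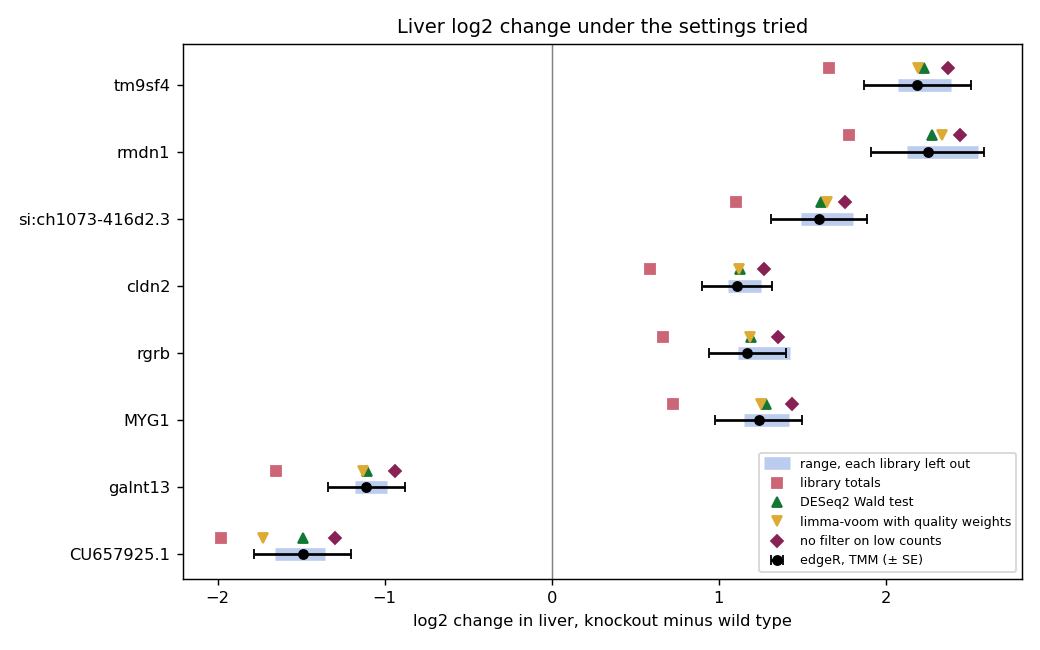
Log2 change of the 8 genes between knockout and wild-type liver in the edgeR fit with TMM (black, ± SE), its range when each of the 16 livers was left out in turn (blue bar), and its value under 4 other settings. All values lie on the same side of 0 for a given gene, and library totals move every gene down, tm9sf4 to 1.66 and CU657925.1 to -1.98.

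Muscle gives a comparison of genotypes in libraries that did not enter the choice of most of these genes. By the series' design both tissues came from the same fish, so the fish themselves are not an independent set. In 12415 genes tested, edgeR called 0 (0.0%), DESeq2 1 and limma-voom 0, while 588 had an unadjusted p under 0.05 with edgeR. Of the 8 genes, 4 passed the filter in muscle. The log2 change of rmdn1 was 0.07 ± 0.38 (edgeR adjusted p = 0.994) and that of CU657925.1 was 0.14 ± 0.31 (adjusted p = 0.984). Both differences were smaller than their standard errors, and such a p does not show that the levels were equal. It is not known that galnt13 and MYG1 were chosen from liver alone, so their log2 changes in muscle, 0.32 ± 0.19 and -0.03 ± 0.25, are given without a test. Without the libraries numbered 6 the log2 changes were 0.03 for rmdn1 (edgeR adjusted p = 0.996), 0.15 for CU657925.1 (adjusted p = 0.976), 0.27 for galnt13 and -0.01 for MYG1. For galnt13, the wild-type median was exceeded by 7 of 8 knockout muscle libraries, the direction opposite to that in liver. Whether that direction was part of the choice of galnt13 is not known, and the share of all tested muscle genes was not counted.

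The other 4 genes were too low in muscle for the fit and were therefore tested singly, by exact permutation of the 16 libraries (two-sided) on log2(CPM + 0.5), a scale that understates the change of low genes. Differences of knockout minus wild type were -0.35 for tm9sf4 (p = 0.575), 0.13 for si:ch1073-416d2.3 (p = 0.858), -0.69 for cldn2 (p = 0.101) and -0.45 for rgrb (p = 0.422), 4 exact tests with unadjusted p. None passed 0.05 in that form. For cldn2 the p fell under 0.05 in the first thinned draw, where the difference was -1.11 (exact permutation p = 0.0437, unadjusted). The direction of the difference was opposite to that in liver. The other draws were not tested in this way, so nothing is concluded from that p. In that draw the median was 2.5 counts for wild type and 0.5 for knockout, with 4 of 8 knockout libraries at 0. Without thinning, the cldn2 values rest on at most 13 counts per wild-type library and 4 per knockout library. Without the 2 muscle libraries numbered 6, the differences were -0.30, 0.24, -0.67 and -0.34 for the same genes in order (exact permutation p = 0.680, 0.594, 0.124 and 0.529, 7 against 7). Whether the genotype difference itself differs between the tissues was not tested, since the liver values chose the genes.

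**Figure D4:**
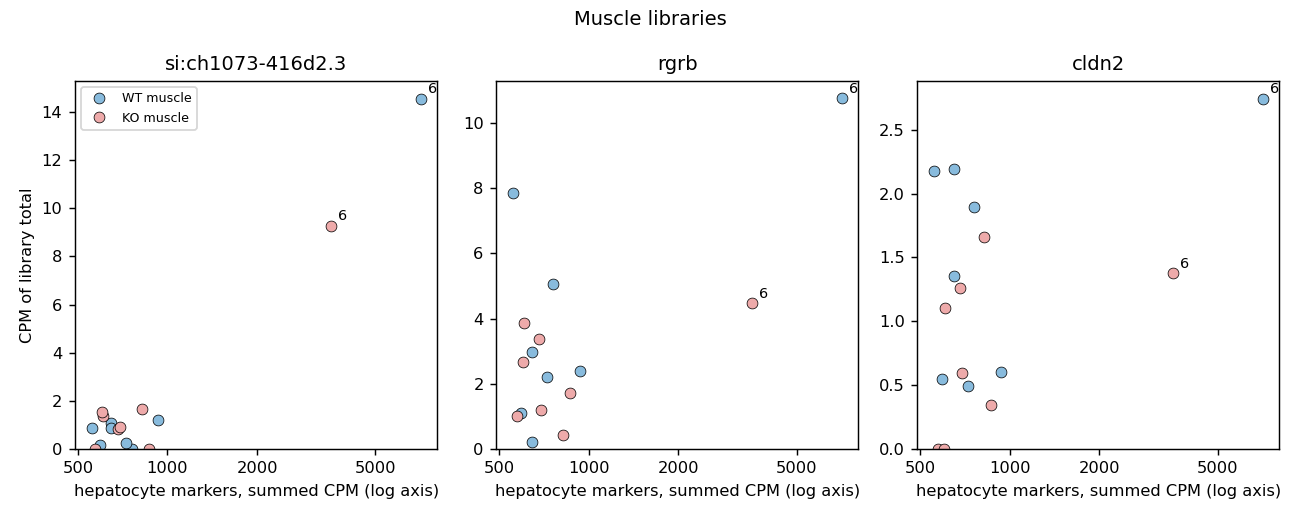
Level of 3 liver-enriched genes (CPM of the library total, axis from 0) in the 16 muscle libraries against the summed CPM of 10 hepatocyte markers (log axis); each dot is a library and the libraries numbered 6 are marked. Those libraries stand apart for the markers, at 7092 and 3542 CPM, and for si:ch1073-416d2.3, at 14.6 and 9.29 CPM. For rgrb each is the highest of its genotype, at 10.8 and 4.47 CPM, while for cldn2 only the wild-type library is, at 2.75 CPM, and knockout replicate 4 lies above knockout replicate 6 (1.66 against 1.38 CPM).

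The 2 muscle libraries numbered 6 held 15.7% (wild type) and 7.67% (knockout) of the liver level of hepatocyte markers, against 1.23% to 2.06% in the other wild-type and 1.24% to 1.87% in the other knockout muscle libraries. In the same 2 libraries si:ch1073-416d2.3 stood at 38.6% and 11.3% of its liver mean, rgrb at 50.3% and 13.1%, and cldn2 at 14.5% and 4.77%. Without them muscle held 14.6% and 5.94% of the liver level of rgrb and 7.00% and 2.46% of that of cldn2. The part of liver RNA in the muscle levels of these genes was not tested.

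Relatives of the 8 genes were described from lists of families and of proteins of the same kind, and none of them was called in either tissue. The 4 other tested tm9sf genes had log2 changes in liver from -0.09 to 0.38, with tm9sf3 at 0.38 ± 0.21 (adjusted p = 0.269), tm9sf1 at -0.09 ± 0.16 (adjusted p = 0.747) and tm9sf2 at 0.08 ± 0.22 (adjusted p = 0.841), all by edgeR. Of the rmdn genes, rmdn2 had a log2 change of -0.83 ± 0.45 (edgeR adjusted p = 0.261), the direction opposite to rmdn1, and rmdn3 did not pass the filter.

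Of 12 other tested claudins, 6 had positive and 6 negative log2 changes, with a median of -0.01 against -0.02 for all liver genes. cldnc stood at 1.09 ± 0.39 (edgeR adjusted p = 0.141), close to the value of cldn2, and cldnj at -0.92 ± 0.33 (adjusted p = 0.143). The claudin cldn11b was at -0.34 ± 0.21 (adjusted p = 0.315). Other tight junction genes, for membrane proteins and for the plaque beneath them, were listed together. Of 18 tested, 10 were positive and 8 negative, with the plaque protein gene cgna, a cingulin, at -0.72 ± 0.19 (adjusted p = 0.0880), the junctional adhesion molecule f11r.1 at 0.65 ± 0.19 (adjusted p = 0.104) and the tricellulin marveld2a at -0.48 ± 0.18 (adjusted p = 0.144). Unadjusted p under 0.05 was found for 7 of these 18, 2 of the 12 claudins, 0 of the 4 tm9sf genes and 0 of 1 rmdn gene, against 22.4% of all liver genes.

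Among 17 other tested opsins and retinoid carriers, 7 were positive and 10 negative, with a median of -0.09. The largest departures by p were the opsin rhol at -0.59 ± 0.19 (edgeR adjusted p = 0.122), opn8c at -0.92 ± 0.36 (adjusted p = 0.159) and opn9 at -0.47 ± 0.20 (adjusted p = 0.183), all lower where rgrb was higher. The carrier and dehydrogenase list also held rdh12 at 1.19 ± 0.81 (adjusted p = 0.375), beside rgrb at 1.17. The 8 other tested O-glycan enzymes were 4 positive and 4 negative, with galnt9 at -0.61 ± 0.21 (adjusted p = 0.131), galnt17 at -0.39 ± 0.23 (adjusted p = 0.306) and galnt14 at 0.47 ± 0.38 (adjusted p = 0.451). Of 15 other RNA exonucleases and exosome genes, 11 were positive and 4 negative, with khnyn at -0.69 ± 0.25 (adjusted p = 0.141), the exosome subunit exosc5 at 0.97 ± 0.37 (adjusted p = 0.149) and exosc2 at 0.42 ± 0.32 (adjusted p = 0.428). The median of that list was 0.09. Of all tested liver genes, 48.2% had positive log2 changes. Unadjusted p under 0.05 was found for 3 of the 17 opsins and retinoid carriers, 1 of the 8 O-glycan enzymes and 2 of the 15 RNA exonucleases.

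**Figure D5:**
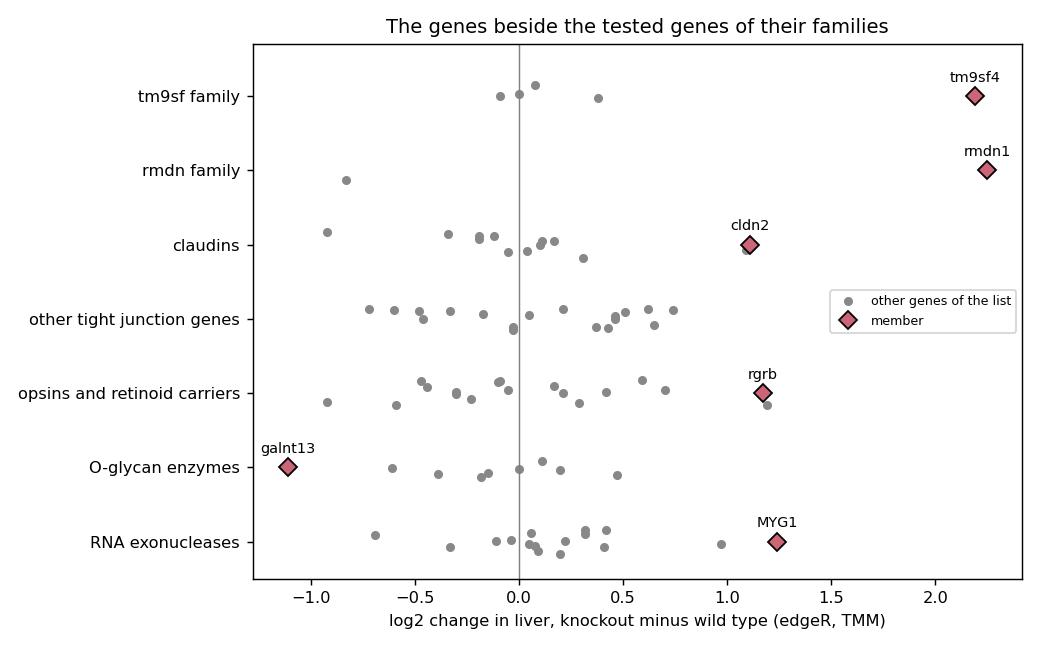
Log2 change between knockout and wild-type liver (edgeR, TMM) of the described genes (red diamonds) and of the other tested genes of each list (grey dots). tm9sf4 and rmdn1 lie beyond 2 while their relatives lie from -0.83 to 0.38, and cldnc at 1.09 lies beside cldn2 at 1.11.

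Neighbouring genes were looked up in the RefSeq annotation of assembly GRCz12tu, which differs from the build of the counts and was used for order only. It held 6 of the 8 genes, and none of the 6 lies on the chromosome of gys2. Among 50 neighbours within 5 places, 12 were tested in liver, 0 were called, and their log2 changes ran from -0.48 to 0.60 with a median of -0.04. The neighbours with the smallest p were pgk1, a glycolytic kinase 5 places from cldn2, at 0.60 ± 0.23 (edgeR adjusted p = 0.153), and hck, a tyrosine kinase next to tm9sf4, at -0.48 ± 0.19 (adjusted p = 0.165). Near gys2 itself the tested genes were STMP1 at 0.53 ± 0.23 (adjusted p = 0.181) and the lactate dehydrogenase gene ldhba at 0.29 ± 0.21 (adjusted p = 0.385).

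Likeness of pattern was measured as Pearson's r of log2 deviations from the genotype mean over the 16 livers, on TMM-scaled CPM. It was taken against all other genes with a mean of at least 10 TMM-scaled CPM (5752, or 5753 for the members below that level). The 2 highest for each member were si:ch211-262i1.6 (r = 0.92) and celf1 (0.81) for tm9sf4, zgc:165573 and huwe1 (0.82 each) for rmdn1, faxdc2 (0.90) and tgfbi (0.84) for si:ch1073-416d2.3, and pla2g15 (0.81) and brd1b (0.80) for cldn2. For rgrb they were rbm4.3 (0.76) and xrcc1 (0.72), for MYG1 selenof (0.91) and scfd1 (0.89), for galnt13 BX323573.1 (0.89) and CABZ01038699.1 (0.84), and for CU657925.1 napba (0.83) and si:ch211-288g17.3 (0.75). These are the highest of 5752 or 5753 values over 16 livers that share depth and scaling, and carry no p. faxdc2, named for a fatty acid hydroxylase domain, averaged 88.5 TMM-scaled CPM over the livers of wild-type fish and 174 over those of knockouts.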

How the data were processed

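The authors deposited raw whole-number counts per gene symbol, 1 column per library, made from Lasy-Seq 3′ libraries whose reverse-transcription products were pooled, per the labels' protocols. Per the submitters' processing notes the build was GRCz11 and the tools included Salmon 1.10.2, BWA 0.7.17-r1188 and fastp 0.23.4, without their roles. The sources used here do not say whether strand or molecular identifiers were used, so counting errors cover counting only. Genotypes were compared within a tissue in R 4.3.3 with edgeR 4.0.16 (robust quasi-likelihood test, TMM, filterByExpr with a minimum count of 10 and total of 15, Benjamini-Hochberg adjusted p under 0.05 over all genes tested). Alternatives were DESeq2 1.42.0, limma-voom (limma 3.58.1), other scalings and filters, a replicate block, thinning to 1514099 counts and each library left out. Members too low for the muscle fit had exact permutation tests on log2(CPM + 0.5). The table includes 24 rows with a mitochondrial sequence identifier in place of a symbol, which were kept. On simulated counts, the liver fit recovered 37.9% of 2-fold and 96.7% of 4-fold changes (9351 genes) and the muscle fit 57.1% and 100% (12012 genes). Calls of unchanged genes numbered 8 in liver and 15 in muscle. Apart from the changed genes, both genotypes were drawn from a shared profile. The simulation therefore lacks the shift between scales seen in the real livers.

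The members and gene lists were chosen with earlier results of these data known. Besides the 8 members and gys2, the text names called relatives or up to 3 per list by smallest p in liver, called neighbours or up to 2 by smallest p, and the 2 genes most alike in pattern to each member. Genes that border the members in the ranking, ppdpfb, CU655961.2, sumo2b and fads2, and rho, rdh12 and lrata were named after their values were seen. The 8 replicates per group are separate fish per the series' design; the sources used here give no dates or batches. Sequences of the members were not used here.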

Additional observations from a re-analysis of the deposited data

Results flagged for a closer look

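In 8 of the 32 sets of 8 libraries (8 genes in 4 groups) the gap between the highest or lowest library and its nearest neighbour, as a share of the whole range, was above Dixon's critical value. That value passes about 1 in 20 groups by chance when values are normally distributed, which low and skewed counts need not be, so no excess is read from the number. For tm9sf4 the highest muscle library was replicate 4 in both genotypes, at 9.61 CPM in wild type (next 4.34 CPM) and 10.8 CPM in knockout (next 5.05 CPM). For si:ch1073-416d2.3 it was replicate 6 in both genotypes, at 14.6 CPM in wild type (next 1.20 CPM) and 9.29 CPM in knockout (next 1.66 CPM), and these are the libraries with raised hepatocyte markers. Knockout liver replicate 1 stood apart for rmdn1 at 93.9 CPM (next 42.4 CPM) and for MYG1 at 18.4 CPM (next 11.6 CPM). Wild-type liver replicate 8 stood apart for rgrb at 47.0 CPM (next 21.3 CPM), and wild-type liver replicate 3 was lowest for galnt13 at 8.09 CPM (next lowest 21.1 CPM).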

How the results depend on the processing

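The number of genes called in liver depended on the processing: 7 in the form reported, 332 with DESeq2, 224 with limma-voom, 3249 with library totals (16 higher, 3233 lower), 99 without a filter, 48 (21 higher, 27 lower) with at least 50 counts in 8 libraries, 4 on thinned counts (1 to 13 over 10 draws), and 2 to 68 with a library left out, the most without wild-type replicate 5. Counts over 1.5 times the reported one also came without wild-type replicates 2 (33) and 3 (12) and knockout replicates 8 (13) and 1 (11). In muscle the count was 0, and 1 with DESeq2, 3 without a filter and 0 to 1 with a library left out, the 1 without knockout replicate 6. Muscle differences changed sign for rmdn1 with limma-voom (-0.15) and with a library left out (-0.084 to 0.20). They did so for MYG1 with library totals (0.08) and with a library left out (-0.22 to 0.06). With a library left out the sign also changed for CU657925.1 (-0.077 to 0.27) and si:ch1073-416d2.3 (-0.25 to 0.61). For tm9sf4 it changed in the first thinned draw (0.21). The cause of these changes was not tested. No liver log2 change of the 8 genes changed sign under the alternatives run. Same-numbered libraries of the genotypes correlated at -0.20 to 0.30 in liver and -0.03 to 0.43 in muscle, over 0.1 in 3 and 6 of 8, and correlated best with their own number in 2 and 5 of 8; with the replicate block 5 liver genes (5 higher, 0 lower) and 2 muscle genes were called. Low counts limit tm9sf4 and MYG1 in wild-type liver and CU657925.1 in knockout liver most.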
